A study of Mus musculus with 192 samples.

Results

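The LPS+SeV+CpGB triplet was compared with its 3 pairs, LPS+SeV, LPS+CpGB and SeV+CpGB, to ask what each ligand adds to cells that already receive the other two. The members are the 3 libraries of each of these 4 groups, chosen by their sample titles, which makes 12 of the 192 libraries of the series. The RNA came from mouse dendritic cells grown from bone marrow. The cells were stimulated for 6 hours with microbial or microbe-like ligands, 7 in the whole series, given alone, in every pair and in every triplet. The 3 single-ligand groups (LPS, SeV and CpGB), the control group Ctrl and the triplet LPS+cGAMP+CpGB, with 3 libraries each, were used beside them.

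All groups came from the same kind of culture. Bone marrow of female C57BL/6J mice aged 6 to 8 weeks was grown with GM-CSF at 15 ng/mL, and 100000 cells were plated per well before stimulation. The labels give no ligand dose, no genetic change and no pooling of animals. They do not say whether replicates came from separate mice or wells, so the p-values measure only spread between libraries, which may be technical. That spread is estimated over all 64 groups of the series, so disagreement within 1 group counts for little in it. LPS is lipopolysaccharide. SeV and CpGB are not spelled out in the labels, and cGAMP is a cyclic dinucleotide.

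Dendritic cells read microbial products through receptors that feed a few shared signalling routes. LPS is sensed by Tlr4, which signals through the adaptor Myd88 towards NF-kappa B and inflammatory cytokines and through Ticam1 (TRIF) towards interferon beta. In common usage SeV denotes Sendai virus, an RNA virus sensed in the cytosol by RIG-I (gene Ddx58), and CpG-B denotes a class of unmethylated DNA oligonucleotides sensed in endosomes by Tlr9 through Myd88. Interferon beta acts back on the cells and induces the interferon-stimulated genes. Ligands that use different adaptors can therefore meet at the same target genes, of which Il12b, the p40 subunit of interleukin 12 and interleukin 23, is a much studied one in dendritic cells.

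The 12 libraries held 121150 to 228111 counts of unique molecular identifiers (UMIs, tags that mark 1 original cDNA molecule), with a median of 155661. The median over all 192 libraries was 171616.5, and the Ctrl libraries were shallower at 61823 to 89530. Ribosomal protein genes took 3.36% to 3.66% of the counts in the 12 libraries. All 10 markers of GM-CSF-grown dendritic cells, such as Itgax and Cd74, had counts, and their summed level was 16777 to 19658 CPM (counts scaled to a common library size, the usual counts-per-million unit) in the 12 libraries. Lyz2 made up the largest part of this sum, at a median of 6682 CPM, while Itgax and Cd74 were at 306 and 985 CPM. Macrophage markers summed to 1291 to 1851 CPM, with Adgre1 not in the table, and markers of neutrophils or their precursors to 791 to 1039 CPM, with Elane at 0. In the same libraries the summed markers reached at most 6.61 CPM for T cells, 8.38 CPM for B cells, 9.40 CPM for mast cells and 11.3 CPM for fibroblasts, and those of NK cells and erythroid cells were at 0. Markers of plasmacytoid dendritic cells summed to 109 to 236 CPM, carried by Tcf4, with Siglech and Ccr9 at a median of 0 and Ly6d and Klk1 at 0 throughout. In these bulk samples, fewer cells that make an RNA and less of it per cell cannot be told apart. Against Ctrl the triplet changed 1489 of 4720 genes tested (31.5%), 844 higher and 645 lower, at an adjusted p under 0.05, and without triplet replicate 3 it changed 1332, 776 higher and 556 lower. Adjusted p-values come from the quasi-likelihood F-test of edgeR, corrected by Benjamini-Hochberg over the 4720 genes, and a change is called under 0.05. Fold changes are log2 ratios with their standard error (SE).

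The library labelled LPS+SeV+CpGB replicate 3 stood apart from replicates 1 and 2 of its group and went against its label. To place each library, 52 genes (1.1% of those tested) were taken that differed by at least 1 on the log2 scale between LPS+SeV and LPS+CpGB, a contrast that uses no triplet library. On a scale where the LPS+SeV mean is 0 and the LPS+CpGB mean is 1, the median position over these genes was 0.895 in triplet replicate 1, 0.890 in replicate 2 and 0.0533 in replicate 3. Replicate 3 was nearer to LPS+SeV at 42 of the 52 genes, against 9 for replicate 1 and 6 for replicate 2. Over 135 genes (2.86%) that separate SeV+CpGB (0) from LPS+CpGB (1), the positions were 0.909, 0.929 and 0.554. Over 111 genes (2.35%) that separate LPS+SeV (0) from SeV+CpGB (1), they were 0.254, 0.254 and 0.187. So replicate 3 lay near LPS+SeV on the first scale and midway on the second, away from replicates 1 and 2 in both, and lay near them on the third.

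**Figure D1:**
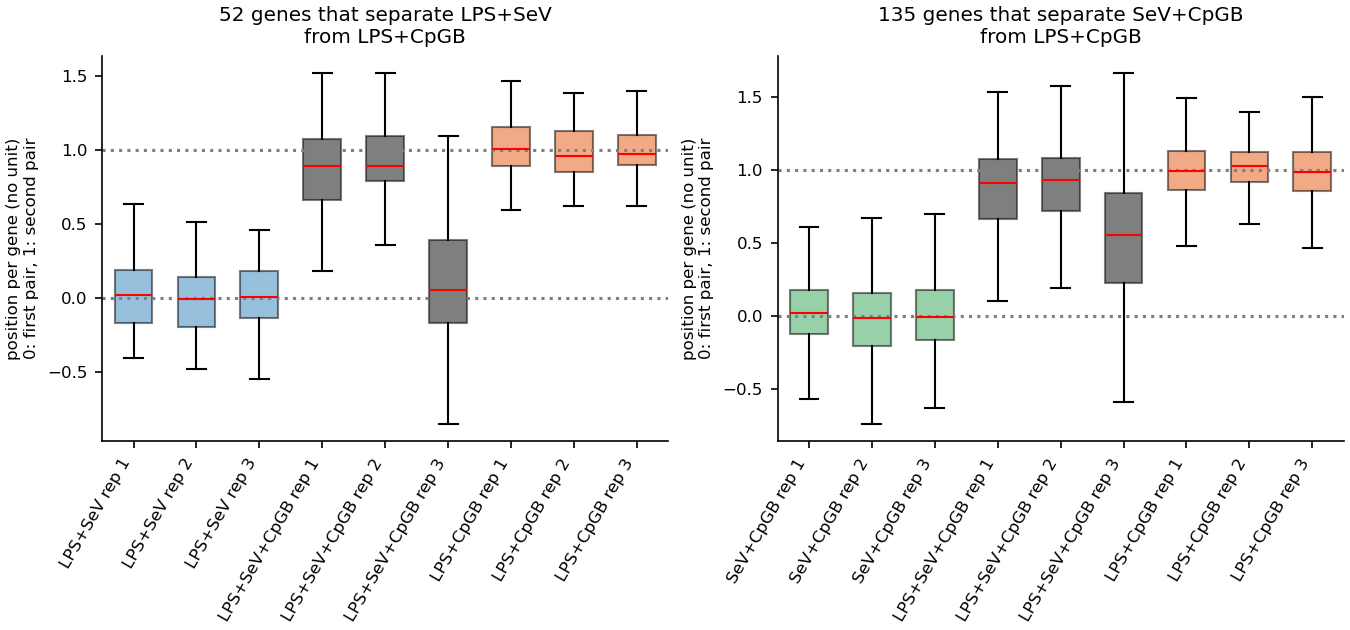
Position of each library between a pair of 2-ligand groups, per gene, as boxes over genes (red line: median, box: quartiles, whiskers: to 1.5 times the box or the last gene, outlying genes not drawn). Left: 52 genes that separate LPS+SeV (0) from LPS+CpGB (1), right: 135 genes that separate SeV+CpGB (0) from LPS+CpGB (1). Triplet replicates 1 and 2 sit near 1 in both panels, and replicate 3 sits near 0 on the left and at 0.554 on the right.

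The counts gave the same picture in another measure. The chi-square per degree of freedom between triplet replicates 1 and 2 was 1.18, and it was 2.12 and 2.16 between either of them and replicate 3. For the 9 replicate pairs within the 2-ligand groups it ranged from 1.16 to 1.39. The depth of replicate 3, 152812 counts, lay between those of replicates 1 and 2, and the ribosomal share was 3.36% to 3.41% in all 3. What set replicate 3 apart was not tested. Counts of called genes are therefore given with all 3 libraries and with replicates 1 and 2 alone, and so are the values of most single genes that are described.

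CpGB added to LPS+SeV raised 19 genes (0.403% of those tested) and lowered 1 (0.0212%), 0.424% together. They were led by Il12b and included inflammatory cytokines and chemokines (Il1a, Il1b, Ccl3) genes that restrain inflammatory signalling (Socs3, Dusp1, Il1rn) and the nuclear I kappa B relatives Nfkbiz and Bcl3. Without triplet replicate 3 the numbers were 52 higher (1.1%) and 13 lower (0.275%), 1.38% together, and all 20 genes called with it were among them. The count was 8 without triplet replicate 1 or replicate 2 and 13 without LPS+SeV replicate 1. Whichever of the 6 libraries was left out, 7 rises held: Il12b, Ccl3, Hsd17b11, Socs3, Anxa1, Nfkbiz and Sowahc. Of these, Nfkbiz and Sowahc were not called without replicate 2 of every group (edgeR adjusted p = 0.061 each). Sowahc and Socs3 were not called with the libraries thinned to 46564 counts (edgeR adjusted p = 0.538 and 0.0749). No gene of the interferon response list rose in either set. The summed dendritic cell markers were at 17915 to 18328 CPM in LPS+SeV and at 16777 to 17638 CPM in the triplet, without overlap, while macrophage and neutrophil markers overlapped, and their part in these changes was not tested.

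Il12b was at 101, 56.6 and 90.7 CPM in the 3 LPS+SeV libraries and at 784, 997 and 76.5 CPM in triplet replicates 1, 2 and 3. Replicates 1 and 2 were far above the pair and replicate 3 was within its range. The log2 fold change was 2.92 (SE 0.38, edgeR adjusted p = 3.19e-09) and reached 3.45 (SE 0.36, edgeR adjusted p = 3.65e-15) without replicate 3. Hsd17b11, a short-chain dehydrogenase found on lipid droplets, was at 461, 422 and 529 CPM in LPS+SeV and at 1474, 1525 and 501 CPM in the triplet, with the same split. Its log2 fold change was 1.30 (SE 0.18, edgeR adjusted p = 2.7e-08), and 1.66 without replicate 3.

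Ccl3, a chemokine that attracts monocytes and T cells, stood at 3945, 4002 and 3819 CPM in LPS+SeV and at 9338, 10467 and 4220 CPM in the triplet. Here all 3 triplet libraries were above the pair, replicate 3 by little. The log2 fold change was 1.03 (SE 0.14, edgeR adjusted p = 2.69e-08), and 1.34 without replicate 3. Il1a and Il1b, the alpha and beta forms of interleukin 1, rose less. Il1b went from 3242, 3278 and 3038 CPM to 4874, 5219 and 3337 CPM, again without overlap, a log2 fold change of 0.49 (SE 0.12, edgeR adjusted p = 0.014), and 0.67 without replicate 3. For Il1a the rise was 0.64 (SE 0.14, edgeR adjusted p = 0.004), and 0.89 without replicate 3, with replicate 3 at 1474 CPM below all 3 LPS+SeV libraries (1479 to 1558). Both calls were lost without triplet replicate 1 or replicate 2 (edgeR adjusted p = 0.152 and 0.541 for Il1a, 0.263 and 0.561 for Il1b), and that of Il1b without LPS+SeV replicate 1 or 3 (0.0609 and 0.152).

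Of the 13 genes tested on the inflammatory list of 15, 5 rose with all libraries (Il12b, Nfkbiz, Ccl3, Il1a and Il1b) and 10 rose without replicate 3, none fell, and the median log2 fold change was 0.62 and 0.89. Over all genes tested the share that rose was 0.403% and 1.1%, and the median was -0.02 and -0.05. Tnf, the tumour necrosis factor, did not pass in either set (0.32, SE 0.16, edgeR adjusted p = 0.623, and 0.45 with adjusted p = 0.228 without replicate 3). Il6 did not pass with all libraries (0.34, SE 0.14, edgeR adjusted p = 0.452) and passed without replicate 3 (0.53, SE 0.15, adjusted p = 0.0403). Il10, the anti-inflammatory cytokine, rested on few counts: 2 in the 3 LPS+SeV libraries and 13 in the triplet, 0 of them in replicate 3, a ratio of 7.15 (95% counting interval 1.62 to 65.2). It passed only without replicate 3 (edgeR adjusted p = 0.255 with it and 0.0306 without).

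On a list of 16 genes collected as brakes on inflammatory signalling, 6 rose with all libraries and 9 without replicate 3, with median log2 fold changes of 0.48 and 0.61. The share that rose over all genes tested was 0.403% and 1.1%. Nfkbiz, Nfkbia, Il10 and Tnfaip3 are on the inflammatory list too, so the counts of both lists share Nfkbiz with all libraries and Nfkbiz, Nfkbia and Il10 without replicate 3. Socs3, which curbs signalling by interleukin 6 type receptors, was at 385, 346 and 292 CPM in LPS+SeV and at 929, 992 and 445 CPM in the triplet. Its log2 fold change was 1.23 (SE 0.17, edgeR adjusted p = 2.7e-08), and 1.52 without replicate 3. Dusp1, a phosphatase that switches off MAP kinases, was at 75.4, 31.5 and 40.3 CPM in the pair and at 162, 307 and 48.7 CPM in the triplet, where replicate 3 fell inside the range of the pair (log2 fold change 1.94, SE 0.38, edgeR adjusted p = 0.000393). Its call was lost without triplet replicate 2 (edgeR adjusted p = 0.829). Without replicate 3 its log2 fold change was 2.38 (SE 0.37). Nfkbiz, an inducible nuclear regulator of NF-kappa B that Il6 and other late genes need and so not only a brake, rose from 193, 132 and 151 CPM to 520, 412 and 236 CPM with no overlap, by 1.30 on the log2 scale and by 1.56 without replicate 3. Bcl3, a nuclear relative of the I kappa B proteins, rose by 2.00 (SE 0.49, edgeR adjusted p = 0.0227), a call lost without triplet replicate 1 or 2 or LPS+SeV replicate 1 or 3 (adjusted p = 0.122 to 0.515), and Il1rn, which encodes the interleukin 1 receptor antagonist, by 0.60 (SE 0.15, adjusted p = 0.0282). These rises were 2.39 and 0.84 without triplet replicate 3.

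The rest of the 19 had varied roles. Slc29a1, a nucleoside transporter, rose from 8.38, 6.29 and 15.1 CPM to 76.7, 87 and 48.7 CPM and showed no overlap, with a log2 fold change of 2.69 (SE 0.63, edgeR adjusted p = 0.0104), and 2.90 without replicate 3. Fam107b rose by 2.39 (SE 0.61), Sowahc by 1.71 (SE 0.33) and Fcgr4, an activating receptor for IgG, by 0.93 (SE 0.23), all 3 with the 3 triplet libraries above the 3 of the pair. Without replicate 3 they rose by 2.58, 1.90 and 1.14. Leaving out triplet replicate 1 or 2, or LPS+SeV replicate 1, ended the calls of Slc29a1 (edgeR adjusted p = 0.0536 to 0.203), Fam107b (0.125 to 0.32) and Fcgr4 (0.152 to 0.659), as did LPS+SeV replicate 2 for Slc29a1 and Fcgr4 and replicate 3 for Fam107b. The other 5 were Anxa1, Tnip3, Fcgr2b (the inhibitory IgG receptor), Dusp2 and Htra4, named here after their values were seen. Anxa1, a phospholipid-binding protein known to dampen inflammation, was at 1349, 1554 and 1481 CPM in LPS+SeV and at 4004, 3787 and 1279 CPM in the triplet, so that replicate 3 was below every library of the pair (log2 fold change 1.04, and 1.41 without replicate 3). The gene that fell was Col4a3bp, a ceramide transfer protein, from 109, 25.2 and 75.6 CPM to 8.52, 11.6 and 13.9 CPM (log2 fold change -2.48, SE 0.63, edgeR adjusted p = 0.0282, and -2.62 without replicate 3). It was not called without triplet replicate 1 or 2 or LPS+SeV replicate 1 or 3 (adjusted p = 0.182 to 0.296).

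Interferon-stimulated genes went the other way where they passed the test. On the interferon response list 0 of 15 genes passed with all libraries and 2 fell without replicate 3, with a median log2 fold change of -0.21 in both sets. These 2 were Cmpk2, a nucleotide kinase, and Rsad2 (viperin), which makes an antiviral nucleotide. Rsad2 was at 11275, 11414 and 11738 CPM in LPS+SeV and at 6986, 7956 and 10846 CPM in the triplet. Replicate 3 lay just under the pair and replicates 1 and 2 well below it, and without replicate 3 the log2 fold change was -0.62 (SE 0.16, edgeR adjusted p = 0.0207). Cmpk2 fell by 0.64 on the log2 scale without replicate 3 (SE 0.16, edgeR adjusted p = 0.0144). Ifit1 and Cxcl10, from the same list, did not pass in either set (-0.26 and -0.27 with all libraries, -0.31 and -0.43 without replicate 3).

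**Figure D2:**
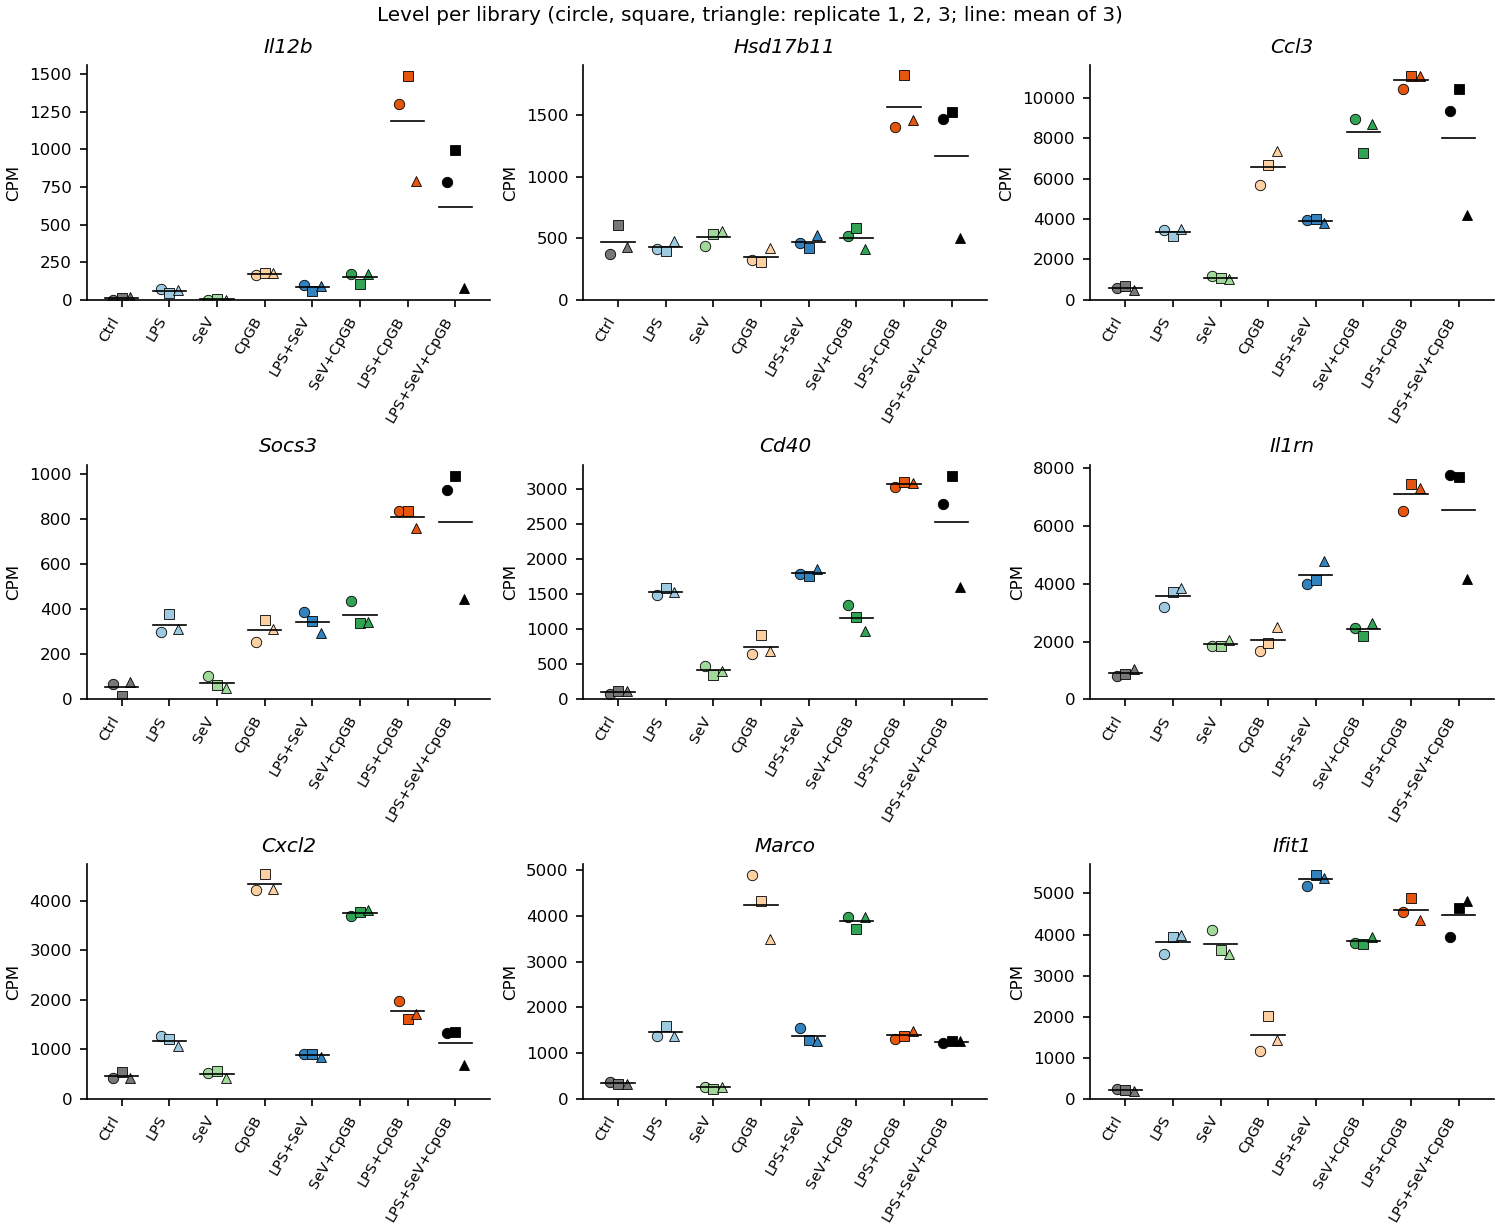
CPM of 9 genes in each library of Ctrl, the 3 single ligands, the 3 pairs and the triplet (marker shape: replicate 1, 2 or 3, line: mean of the 3). For Il12b, Hsd17b11, Ccl3, Socs3, Cd40 and Il1rn, triplet replicates 1 and 2 lie with LPS+CpGB and the triangle of replicate 3 with LPS+SeV. Marco is at 1218 to 1258 CPM in all 3 triplet libraries.

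No gene was called when SeV was added to LPS+CpGB: 0 of 4720 (0%) passed with all libraries and 0 without triplet replicate 3, and DESeq2 called 0 as well. The smallest edgeR adjusted p was 0.46 with all libraries and 0.999 without replicate 3. At an unadjusted p under 0.05 there were 277 genes (5.87%) with all libraries, 144 higher and 133 lower, and 197 (4.17%) without replicate 3. Some alternatives called 1 to 3 genes, all lower: Il12b and Cxcl2 with no filter on low counts (edgeR adjusted p = 0.000957 and 0.0212) and with the 12 libraries fitted alone (0.0299 and 0.00466), Anxa1 without triplet replicate 1 (0.0416), and Anxa1, Ccl3 and Il12b without replicate 2 (0.0445, 0.0394 and 0.0105). Each of these settings keeps triplet replicate 3. For 40% of the genes the 95% interval of the log2 fold change lay within 1 in both directions. For the others the depth leaves room for a change of 2-fold or more.

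Genes that SeV raised strongly on its own had intervals around 0 when it was added to LPS+CpGB. Ifit1, an antiviral RNA-binding protein, was at 4119, 3625 and 3536 CPM with SeV alone, at 4547, 4887 and 4353 CPM in LPS+CpGB and at 3936, 4657 and 4811 CPM in the triplet. The last 2 groups overlapped, with a log2 fold change of -0.04 (95% interval -0.30 to 0.22). For Mx1, an antiviral GTPase, the log2 fold change was 0.05 (-0.19 to 0.28), and for Cxcl10, a chemokine for activated T cells, it was 0.10 (-0.22 to 0.43). Ifnb1, interferon beta itself, was at 128, 255 and 174 CPM in LPS+CpGB and at 239, 261 and 132 CPM in the triplet, a log2 fold change of 0.16 (-0.39 to 0.71). Without replicate 3 the values were -0.09 for Ifit1, -0.03 for Mx1, -0.06 for Cxcl10 and 0.40 (SE 0.30) for Ifnb1. With SeV alone Ifnb1 stood at 248, 261 and 244 CPM.

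All 13 genes tested on the inflammatory list had negative log2 fold changes when SeV was added, none of which passed, with a median of -0.41. Without replicate 3 the median was -0.19 and 12 of 13 were negative. Over all genes the median was 0.01 with all libraries. Il12b was at 1299, 1485 and 790 CPM in LPS+CpGB against 784, 997 and 76.5 CPM in the triplet. Its log2 fold change of -0.92 (95% interval -1.43 to -0.41, edgeR adjusted p = 0.46) became -0.39 (SE 0.26, adjusted p = 0.999) without replicate 3. Tnf stood at -0.27 (-0.58 to 0.03), Il6 at -0.41 (-0.67 to -0.14) and Hsd17b11 at -0.43 (-0.74 to -0.11). Without replicate 3 these were -0.14, -0.22 and -0.06. Of the sensors and adaptors of the 3 ligands, such as Tlr4, Myd88 and Ddx58, 14 of 19 were tested and none passed, with a median of 0.14 and, without replicate 3, 0.17. Tlr9, Ly96, Ticam1, Traf6 and Mavs had too few counts to be tested.

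**Figure D3:**
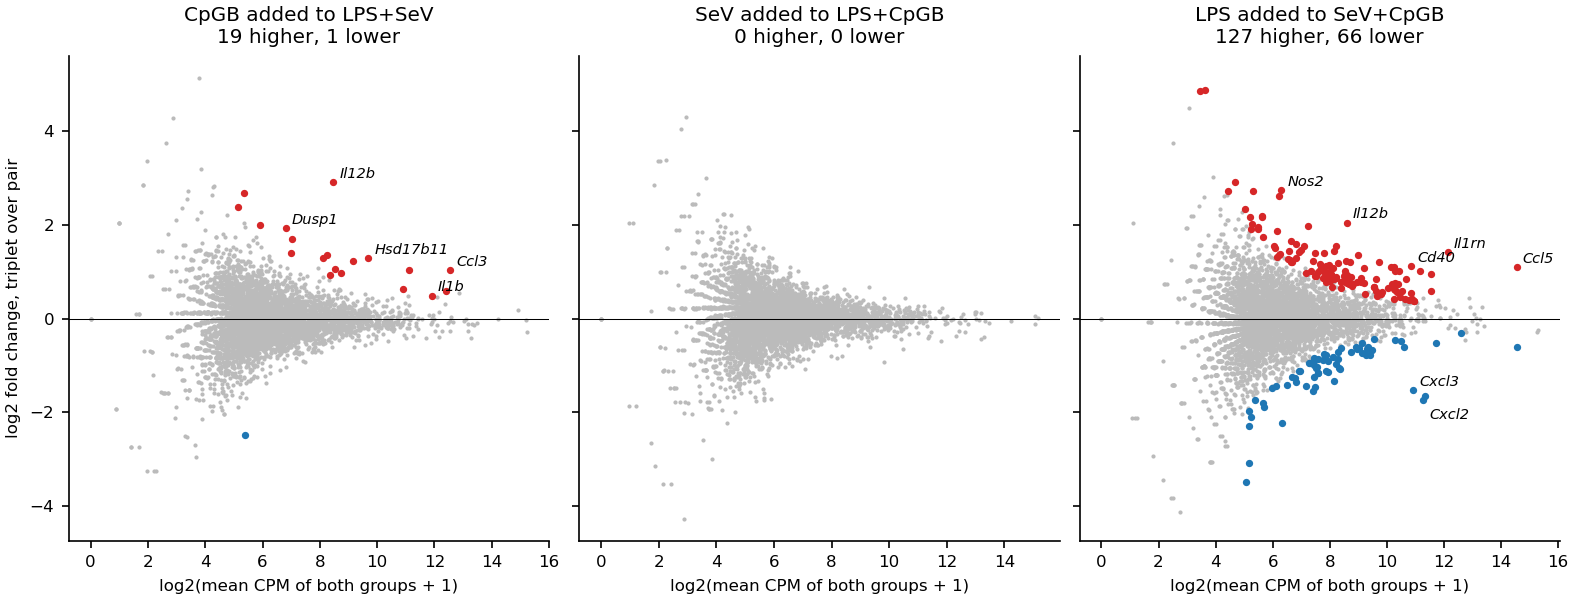
Log2 fold change of the triplet over each pair (y) against log2 of the mean CPM of both groups plus 1 (x), 1 point per gene tested, all libraries. Red and blue: higher and lower at an edgeR adjusted p under 0.05, grey: not called. CpGB added 19 higher and 1 lower gene, SeV none, and LPS 127 higher and 66 lower.

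LPS added to SeV+CpGB had the broadest effect of the 3 additions, with 193 genes changed (4.09%), 127 higher (2.69%) and 66 lower (1.4%). Without triplet replicate 3 there were 168 (3.56%), 107 higher (2.27%) and 61 lower (1.29%), of which 145 were called in both sets. Leaving out other libraries gave 120 genes (triplet replicate 1), 99 (triplet replicate 2), 117 (SeV+CpGB replicate 2) and 109 (SeV+CpGB replicate 3). Leaving out replicate 2 of every group gave 56, and Nos2 was then not called. Whichever of the 6 libraries was left out, 52 calls held, 39 higher and 13 lower, among them Il12b, Il1rn, Cd40, Ccl5, Nos2, Oasl1, Gbp2, Cxcl2, Cxcl3, Marco and Csf1r. The rise included Il12b, the costimulatory receptor Cd40, the interleukin 1 antagonist Il1rn, the chemokine Ccl5, the nitric oxide synthase Nos2 and some interferon-stimulated genes. The fall included the neutrophil chemokines Cxcl2 and Cxcl3, the scavenger receptor Marco and the growth factor receptor Csf1r.

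Il1rn was at 2458, 2184 and 2650 CPM in SeV+CpGB and at 7770, 7707 and 4171 CPM in the triplet. All triplet libraries were above the pair, replicate 3 the least, with a log2 fold change of 1.43 (SE 0.16, edgeR adjusted p = 3.04e-13), and 1.67 without replicate 3. Cd40, through which T cells license dendritic cells, rose from 1344, 1182 and 978 CPM to 2795, 3195 and 1599 CPM, without overlap. Its log2 fold change was 1.12 (SE 0.14, edgeR adjusted p = 2.58e-10), and 1.37 without replicate 3. Ccl5, a chemokine for T cells and monocytes, went from 16331, 12704 and 16490 CPM to 34711, 33113 and 30139 CPM, and here replicate 3 lay near the other 2 (1.11, SE 0.14, edgeR adjusted p = 2.47e-10, and 1.16 without replicate 3).

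Il12b rose from 172, 105 and 172 CPM in SeV+CpGB to 784, 997 and 76.5 CPM. Replicates 1 and 2 were above the pair and replicate 3 below it, and the log2 fold change was 2.05 (SE 0.35, edgeR adjusted p = 5.95e-06) with all libraries and 2.58 (SE 0.33) without replicate 3. In its family, Il12a (p35, the partner of p40 in interleukin 12) rose by 0.91 (SE 0.27, edgeR adjusted p = 0.03) and Il15 by 0.98 (SE 0.25, adjusted p = 0.00764), and 4 of 11 genes tested passed, with Il12b and Tnfsf15. Without replicate 3, 4 of 11 passed, with Il12a at 1.16 and Il15 at 1.07, but Ebi3 took the place of Tnfsf15 (edgeR adjusted p = 0.0712). Il15 was not called without triplet replicate 1 or SeV+CpGB replicate 2 (edgeR adjusted p = 0.0962 and 0.0732), nor Il12a without triplet replicate 1 or 2 or SeV+CpGB replicate 1 or 2 (0.116 to 0.263). Nos2, which makes nitric oxide from arginine, went from 16.4, 7.53 and 33 CPM to 162, 162 and 83.4 CPM with no overlap (2.74, SE 0.53, edgeR adjusted p = 8.33e-05, and 3.00 without replicate 3). Slc7a2, an arginine transporter, rose by 0.85 (SE 0.12, edgeR adjusted p = 4.43e-09), and Ptgs2, the inducible cyclooxygenase, by 0.75 (SE 0.23, adjusted p = 0.04), a call that any library but triplet replicate 3 ended when left out (0.0851 to 0.509). Without replicate 3 the rises were 0.82 and 1.05. Nos2, Slc7a2 and Ptgs2 were the 3 members that passed, in both sets, among 9 tested of the list for arginine, itaconate and prostaglandin metabolism. Over all genes tested 4.09% passed, and 3.56% without replicate 3.

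On the inflammatory list 3 genes rose (Il12b, Ptgs2 and Tnfaip3, a brake on NF-kappa B) and 3 fell (Cxcl1, Cxcl2 and Nfkbiz) of 13 tested, with a median log2 fold change of 0.07. Without replicate 3, 4 rose and 1, Cxcl2, fell. Over all genes tested 2.69% rose and 1.4% fell with all libraries. Tnf was also called lower with library size alone (-0.49, edgeR adjusted p = 0.0288, and 0.0732 as reported).

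Of the maturation list 3 of 12 genes tested passed, all higher: Cd40, Cd200 and Il15ra, the receptor that presents interleukin 15, which was lost without SeV+CpGB replicate 3 (edgeR adjusted p = 0.0735). All 12 had positive log2 fold changes, with a median of 0.40 beside 0.03 over all genes, and without replicate 3 the same 3 passed, with a median of 0.44 beside 0.00. Of the 16 brakes, 5 rose and 1, Nfkbiz, fell. Without replicate 3, 5 of the 16 again rose, Nfkbiz was no longer called (edgeR adjusted p = 0.43) and Irak3, a negative regulator of Toll-like receptor signalling, was lower (-1.67, adjusted p = 0.0257). Class II presentation had 0 of 7 genes tested called, and class I presentation had 1 of 11, Tapbp, lost without triplet replicate 2 or SeV+CpGB replicate 1 (edgeR adjusted p = 0.128 and 0.156). Both counts were the same without replicate 3, and H2-Ab1 of class II was called lower with library size alone (edgeR adjusted p = 0.0342). Pfkfb3, which drives glycolysis, was the single member called of 14 on the glycolysis list, with a log2 fold change of 1.41 (SE 0.26, edgeR adjusted p = 4.67e-05), and 1.61 without replicate 3. Over all genes tested 2.69% were higher and 1.4% lower, so a single call in a short list says little about that list.

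Of the interferon response list 4 of 15 genes rose in both sets, Oasl1, Ifi44, Zbp1 and Isg15, with a list median of 0.36 and, without replicate 3, 0.22. Over all genes tested 2.69% rose, and 2.27% without replicate 3. Oasl1, which limits translation of Irf7, was at 778, 783 and 773 CPM in SeV+CpGB and at 1636, 1641 and 1724 CPM in the triplet. The 3 triplet libraries were alike and above the pair, with a log2 fold change of 1.10 (SE 0.20, edgeR adjusted p = 4.37e-05), and 1.07 without replicate 3. Isg15, a ubiquitin-like modifier, rose from 1311, 986 and 1223 CPM to 1832, 1914 and 1536 CPM without overlap (0.59, SE 0.15, edgeR adjusted p = 0.00551, and 0.68 without replicate 3). Isg15 and Ifi44 were not called without triplet replicate 2 (edgeR adjusted p = 0.074 and 0.0838) or SeV+CpGB replicate 2 (0.102 and 0.0802), Ifi44 also without SeV+CpGB replicate 3 (0.0865), and Zbp1 without triplet replicate 1 or SeV+CpGB replicate 1 or 2 (0.0598 to 0.112). Of the guanylate-binding proteins and immunity-related GTPases, 3 of 12 passed (Iigp1, Gbp2 and Gbp3), of which Gbp2 held whichever library was left out. Iigp1 was lost without triplet replicate 3 or SeV+CpGB replicate 2 or 3 (edgeR adjusted p = 0.0601 to 0.179), and Gbp3 without triplet replicate 2 or SeV+CpGB replicate 3 (0.074 and 0.0958).

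Some of the largest rises rested on few counts. Vps39, a subunit of the HOPS vesicle tethering complex, had 0 counts in the SeV+CpGB libraries and 9 in the triplet, so it was at least 2.81-fold higher against a floor of 3 counts over the group. Shisa3 had 2 counts in the pair and 18 in the triplet, a ratio of 8.43 (95% counting interval 2.02 to 74.9). Pvr, an adhesion receptor, was at 0, 0 and 26.4 CPM in the pair and at 76.7, 87 and 41.7 CPM in the triplet, and Car4, a carbonic anhydrase, went from 24.6, 30.1 and 6.61 CPM to 145, 116 and 118 CPM. Fbxo22, Sgcb and Gnb4 completed the 8 largest rises and were lost without replicate 3 (edgeR adjusted p = 0.0737, 0.0858 and 0.0844). Of these 8, the calls of Nos2 and Car4 held whichever library was left out. Pvr was lost without triplet replicate 2 or SeV+CpGB replicate 1 or 2 (0.0622 to 0.0743), Vps39 without triplet replicate 1 or any SeV+CpGB library (0.0939 to 0.195), and Shisa3 without triplet replicate 1 or 2 or any SeV+CpGB library (0.0783 to 0.277).

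Cxcl2, a chemokine for neutrophils, was at 3696, 3773 and 3807 CPM in SeV+CpGB and at 1329, 1351 and 688 CPM in the triplet. All triplet libraries were far below the pair, replicate 3 the lowest. The log2 fold change was -1.74 (SE 0.18, edgeR adjusted p = 1.38e-14), the smallest p of this comparison, and -1.49 without replicate 3. Its relative Cxcl3 fell from 2360, 3012 and 3186 CPM to 980, 1177 and 806 CPM (-1.52, SE 0.21, edgeR adjusted p = 5.94e-09, and -1.40 without replicate 3). Cxcl1, of the same function, went from 483, 384 and 436 CPM to 256, 302 and 62.6 CPM. There the fall of 1.05 on the log2 scale (SE 0.27, edgeR adjusted p = 0.00789) was lost without replicate 3 (-0.62, SE 0.28, adjusted p = 0.264) and without SeV+CpGB replicate 1 (adjusted p = 0.0506). With CpGB alone, Cxcl2 was at 4221, 4529 and 4233 CPM, the highest of the 8 groups plotted by library.

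These 3 genes lie in 1 stretch of chromosome 5 and share promoter letters of the kind NF-kappa B binds, so their promoters are shown with that of Isg15 as an interferon-stimulated counterpart that LPS raised. Sequences are from RefSeq on GRCm38.p6, from 250 bases before to 50 bases after the start site, with matches in capitals. The motifs searched, each on both strands, were the kappa B consensus and the core of the interferon-stimulated response element, GAAANNGAA. Overlapping matches were counted separately and are shown as 1 run of capitals. Of 32851 promoters of this length, 8.46% hold a kappa B match and 8.56% the interferon core.
Cxcl1 (chr5:90890995-90891294, plus strand): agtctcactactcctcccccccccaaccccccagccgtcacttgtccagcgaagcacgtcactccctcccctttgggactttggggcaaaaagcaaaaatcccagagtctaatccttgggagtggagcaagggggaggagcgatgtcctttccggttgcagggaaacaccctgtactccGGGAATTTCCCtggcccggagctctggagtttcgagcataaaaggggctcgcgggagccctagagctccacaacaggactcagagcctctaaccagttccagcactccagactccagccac
Cxcl2 (chr5:90903649-90903948, plus strand): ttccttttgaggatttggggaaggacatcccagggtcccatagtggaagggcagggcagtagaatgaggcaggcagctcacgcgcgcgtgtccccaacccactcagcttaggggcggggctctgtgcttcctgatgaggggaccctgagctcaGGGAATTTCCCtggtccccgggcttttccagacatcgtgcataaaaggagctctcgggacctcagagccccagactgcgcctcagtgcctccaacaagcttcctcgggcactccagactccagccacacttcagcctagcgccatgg
Cxcl3 (chr5:90785851-90786150, plus strand): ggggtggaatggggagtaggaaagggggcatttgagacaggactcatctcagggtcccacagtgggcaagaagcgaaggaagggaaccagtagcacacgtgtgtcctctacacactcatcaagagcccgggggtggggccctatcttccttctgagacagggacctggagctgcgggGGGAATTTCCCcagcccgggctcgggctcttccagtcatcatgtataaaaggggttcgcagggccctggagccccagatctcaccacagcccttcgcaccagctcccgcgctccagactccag
Isg15 (chr4:156200769-156201068, minus strand): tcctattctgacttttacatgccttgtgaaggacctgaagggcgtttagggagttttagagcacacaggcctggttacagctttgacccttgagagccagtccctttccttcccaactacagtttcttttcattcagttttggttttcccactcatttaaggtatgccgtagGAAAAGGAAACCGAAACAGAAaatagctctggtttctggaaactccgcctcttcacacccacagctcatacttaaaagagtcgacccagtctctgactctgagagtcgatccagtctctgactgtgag

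Cxcl1, Cxcl2 and Cxcl3 each held 2 kappa B matches that overlap in 1 run, and Isg15 held 3 overlapping matches of the interferon core. Il12b, Socs3, Hsd17b11 and Marco held no match to either motif in this window, and Ccl3 held 1 interferon core. Of the 19 genes that CpGB raised, 17 had a promoter in the table. Of these, 4 held a kappa B match (23.5%) and 2 the interferon core (11.8%). For the genes that LPS raised or lowered and for all genes tested, under 80% had a promoter there (92 of 127, 45 of 66 and 3614 of 4720), so their shares are void and the shares for CpGB are not compared.

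Marco, a scavenger receptor for bacteria and particles, fell from 3974, 3728 and 3985 CPM in SeV+CpGB to 1218, 1258 and 1258 CPM in the triplet. The 3 triplet libraries differed by little, and the log2 fold change was -1.64 (SE 0.18, edgeR adjusted p = 3.13e-13) with all libraries and -1.65 without replicate 3. Csf1r, the receptor for macrophage colony-stimulating factor, fell from 746, 949 and 899 CPM to 366, 557 and 577 CPM, without overlap (-0.77, SE 0.16, edgeR adjusted p = 0.000478, and -0.87 without replicate 3). These 2 were the members called, in both sets, of 10 tested on the list of macrophage-associated and scavenger genes. The share called lower over all genes tested was 1.4%, and 1.29% without replicate 3. The summed macrophage markers were at 1557 to 1851 CPM in SeV+CpGB and at 1369 to 1457 CPM in the triplet, and their part in the fall of Marco and Csf1r was not tested.

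The largest falls were in weakly expressed genes. Cd300a, an inhibitory receptor of myeloid cells, was at 65.6, 60.2 and 52.9 CPM in SeV+CpGB and at 8.52, 5.8 and 0 CPM in the triplet, with 2 counts there, a ratio of 12.8 in favour of the pair (95% counting interval 3.18 to 112). Dok2, an adaptor that restrains kinase signalling, was at 107, 120 and 165 CPM in the pair and at 8.52, 11.6 and 62.6 CPM in the triplet (-2.23, SE 0.51, edgeR adjusted p = 0.0017, and -3.59 with SE 0.71 without replicate 3). Agap1, Ppp3ca (the catalytic subunit of calcineurin) and P2ry13, a receptor for ADP, also fell, with and without replicate 3. Dok2 was lost without triplet replicate 2 (edgeR adjusted p = 0.0667), and Ppp3ca and P2ry13 without triplet replicate 1 or 2 or SeV+CpGB replicate 1 or 3 (0.0703 to 0.241). Ndufb11, Idh1 and Tle4 were lost without triplet replicate 3 (edgeR adjusted p = 0.0526, 0.142 and 0.0627).

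No gene was above all 3 pairs or below all 3 pairs. The rule asked for a log2 fold change of at least 1 over each pair and an edgeR adjusted p under 0.05 for the weakest of the 3 tests, and 0 of 4720 genes (0%) passed in either direction. None passed without the fold threshold or without replicate 3. In the estimates alone, 1059 of 4720 genes were higher in the triplet than in each pair, 5 of them by at least 1, and 999 were lower than in each, 45 of them by at least 1. Some group is highest and some group lowest at every gene, so such counts arise without any effect. At an unadjusted p under 0.05 in all 3 tests there were 4 genes above and 11 below. Without triplet replicate 3 the estimates were higher than in each pair for 1166 genes, 14 of them by at least 1, and lower for 1257, 106 of them by at least 1, with 16 above and 14 below at an unadjusted p under 0.05. The nearest above, named after its values were seen, was Xcr1, the receptor of cross-presenting dendritic cells for Xcl1 (42.6, 46.4 and 69.5 CPM against 8.02 to 32.9 CPM over the 9 pair libraries), with an adjusted p of 1 by edgeR.

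To ask whether an added ligand did in the pair what it did alone, the effect in the pair was tested against the effect over Ctrl. Within a test the effects share no library. The tests of the 3 ligands all use the same triplet and Ctrl libraries, so their results are not independent of each other. Summed macrophage markers were at 1359 to 1440 CPM in Ctrl, 1191 to 1347 with LPS, 1930 to 2026 with SeV and 1164 to 1540 with CpGB, and those of dendritic cells at 18122 to 19817, 16168 to 16802, 16974 to 17727 and 18224 to 19100 CPM. Their part in the effects was not tested. CpGB alone raised 592 genes (12.5%), and 11 of them also rose when CpGB was added to LPS+SeV, which is 1.86% of the 592 and 57.9% of the 19. SeV alone raised 575 genes (12.2%), and none of them rose on LPS+CpGB. LPS alone raised 807 (17.1%), of which 96 rose on SeV+CpGB (11.9% of the 807 and 75.6% of the 127), while 18 of the 807 fell. Without replicate 3 the shared rises were 30 for CpGB, 0 for SeV and 78 for LPS, out of 52, 0 and 107 called in the pair.

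The median log2 effect of the raised genes shrank in each case. It went from 1.80 alone to -0.01 in the pair for CpGB, from 1.84 to 0.06 for SeV and from 1.88 to 0.23 for LPS. Since those genes were chosen by their rise alone, the medians alone are a description. The test of the difference called 617 genes for CpGB (13.1%), 149 with a higher (3.16%) and 468 with a lower effect in the pair (9.92%). It called 513 for SeV (10.9%), 116 higher (2.46%) and 397 lower (8.41%), and 735 for LPS (15.6%), 199 higher (4.22%) and 536 lower (11.4%). Without replicate 3 the numbers were 582 (12.3%), 461 (9.77%) and 700 (14.8%). The Ctrl libraries were shallower than the others, and the split depended on the scaling. With library size alone it was 288 higher and 359 lower for CpGB, 220 and 332 for SeV, and 360 and 433 for LPS, and the median of all genes moved up by 0.23, 0.20 and 0.26.

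**Figure D4:**
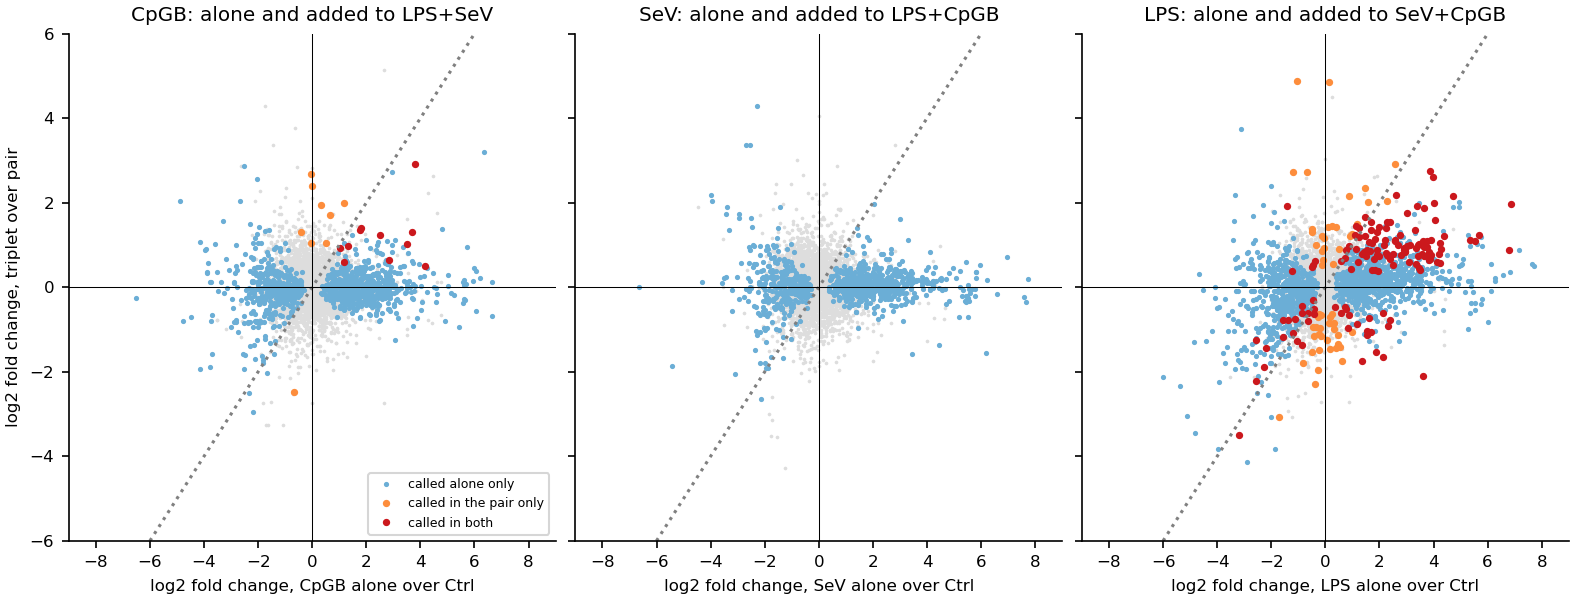
Log2 fold change of a ligand added to the pair (y) against its log2 fold change alone over Ctrl (x), 1 point per gene tested. Blue: called alone only, orange: called in the pair only, red: called in both, grey: called in neither, dotted line: equal effects. Most blue points lie along y = 0, and red points are 0 for SeV.

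All 15 interferon response genes had a smaller effect in the pair than alone for each of the 3 ligands, by this test and under all 3 scalings tried. For SeV, Mx1 was at 429, 499 and 250 CPM in Ctrl and 6001, 5158 and 5154 CPM with SeV alone. The difference between its effects was -3.78 on the log2 scale (SE 0.21, edgeR adjusted p = 2.56e-40), and for Ifit1 it was -4.16 (SE 0.25, adjusted p = 1.8e-36). They were -3.85 and -4.21 without triplet replicate 3. On the inflammatory list 11 of 13 genes had a smaller effect for CpGB, 10 for LPS and 5 for SeV, of which 3 were called for SeV with library size alone. Without triplet replicate 3 the counts were 11, 10 and 3, with Il1a and Il1b no longer called for SeV. Il1b rose by 4.16 (SE 0.17) with CpGB alone and by 0.49 (SE 0.12) on LPS+SeV, a difference of -3.67 (SE 0.21, edgeR adjusted p = 6.59e-40), and -3.50 without replicate 3. Irg1, the itaconate synthase, and Clec4e, a C-type lectin receptor, followed it among the smallest p-values for CpGB.

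The genes with the smallest p among those with a higher effect in the pair were ones that CpGB lowered alone. Gpx1, a glutathione peroxidase, fell by 1.94 on the log2 scale (SE 0.14) with CpGB alone and stood at -0.01 (SE 0.15) on LPS+SeV, a difference of 1.93 (SE 0.21, edgeR adjusted p = 1.03e-15). Lgals3, a galectin, and Neat1, a nuclear non-coding RNA, gave differences of 1.56 (SE 0.17) and 1.56 (SE 0.21) for CpGB. The 3 differences were 1.91, 1.64 and 1.41 without triplet replicate 3. Il12b was among the genes for which no difference was called for CpGB: it rose by 3.82 (SE 0.86) alone and by 2.92 (SE 0.38) on LPS+SeV.

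The three-way interaction compares the triplet with what its pairs, singles and Ctrl give when log2 effects and their pairwise departures add up. A gene that sits at 1 level in every stimulated group and lower in Ctrl scores positive by this sum. A positive value therefore does not mean that the triplet exceeds its pairs. The interaction was called for 195 genes (4.13%), 184 positive (3.9%) and 11 negative (0.233%), and without replicate 3 for 170 (3.6%), 157 positive (3.33%) and 13 negative (0.275%). Whichever of the 24 libraries behind it was left out, 113 calls held, 112 positive and 1 negative. All 15 interferon response genes were positive, with a median of 2.64, and so were 8 of 12 guanylate-binding proteins and immunity-related GTPases, while 0 of 13 inflammatory genes were positive and 1, Il6, was negative. Without replicate 3 these counts were the same, with an interferon response median of 2.45. The median over all genes was 0.07 and 0.05. Gbp2, a GTPase active against intracellular pathogens, shows the shape. It was at 125, 262 and 211 CPM in Ctrl and at 3342, 3658 and 3750 CPM with LPS alone, 2274, 1985 and 2125 CPM with SeV alone and 1494, 1813 and 1858 CPM with CpGB alone. The pairs ranged from 2274 to 4004 CPM and the triplet was at 3118, 3543 and 4185 CPM, with replicates 1 and 2 within the range of the pairs and replicate 3 above it. The interaction was 2.96 (SE 0.28, edgeR adjusted p = 1.19e-17), and 2.84 without replicate 3.

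Mx1 (2.74, SE 0.28), Pnp, the purine nucleoside phosphorylase (2.68, SE 0.28), and Ifi204, a DNA sensor of the Ifi200 family (2.57, SE 0.30), followed Gbp2. They were at 2.66, 2.53 and 2.60 without triplet replicate 3. Il6 was among the negative genes. It was at 1370, 1086 and 1342 CPM with LPS, 182, 138 and 150 CPM with SeV and 1009, 1195 and 1277 CPM with CpGB. In the pairs it was at 1630 to 2036 CPM (LPS+SeV), 2971 to 3009 CPM (LPS+CpGB) and 1905 to 2432 CPM (SeV+CpGB), and in the triplet at 2641, 2505 and 1648 CPM. The interaction was -1.55 (SE 0.43, edgeR adjusted p = 0.0143), and -1.37 (SE 0.43, adjusted p = 0.0435) without triplet replicate 3. It was not called without Ctrl replicate 3 (adjusted p = 0.354).

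The triplet in which cGAMP takes the place of SeV had higher levels of inflammatory genes and of Ifnb1. cGAMP is the second messenger that activates STING, a route to interferon beta from cytosolic DNA. The LPS+SeV+CpGB triplet differed from LPS+cGAMP+CpGB at 127 genes (2.69%), 54 higher (1.14%) and 73 lower (1.55%), and without replicate 3 at 61 genes (1.29%), 23 higher (0.487%) and 38 lower (0.805%). Whichever of the 6 libraries was left out, 41 calls held, 13 higher and 28 lower, among them Ifnb1, Tnf, Il6, Il10, Ccl2, Ccl7, Tnfsf15 and Oasl1. Doses are not given in the labels, so the comparison is of these cultures as stimulated. The summed macrophage markers (6 of 7 with counts, Adgre1 not in the table) were at 1369 to 1457 CPM with SeV and 1101 to 1157 CPM with cGAMP, and those of dendritic cells (10 of 10) at 16777 to 17638 and 14992 to 16513 CPM, without overlap. Neutrophil markers overlapped, at 823 to 1039 and 670 to 1055 CPM, with Elane and Mpo at 0 in both groups. Their part in the differences was not tested.

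Ifnb1 was at 239, 261 and 132 CPM with SeV and at 851, 739 and 1062 CPM with cGAMP beside LPS and CpGB. The 2 groups did not overlap, and the log2 fold change was -2.07 (SE 0.23, edgeR adjusted p = 5.71e-13), and -1.82 without replicate 3. Tnf was at 6041, 6698 and 4714 CPM against 12372, 14183 and 13752 CPM with cGAMP (-1.21, SE 0.15, edgeR adjusted p = 2.2e-10, and -1.08 without replicate 3). Of the 13 inflammatory genes tested, 11 were lower with SeV, with a median log2 fold change of -0.89, and 7 without replicate 3, with a median of -0.58. The share called lower over all genes tested was 1.55%, and 0.805% without replicate 3.

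Il10 was at 51.1, 40.6 and 0 CPM against 176, 183 and 212 CPM with cGAMP, a log2 fold change of -2.64 (SE 0.45, edgeR adjusted p = 4.75e-06), and -2.07 (SE 0.47, adjusted p = 0.00364) without replicate 3. Il12b was called lower with all libraries (-0.97, edgeR adjusted p = 0.0149) and not without replicate 3 (-0.45, adjusted p = 0.593) nor without cGAMP triplet replicate 1 or 3 (0.256 and 0.0569), and Il1b was called in neither set. Among 16 chemokines 6 were lower in both sets, including the monocyte attractants Ccl2 (358, 429 and 362 CPM against 1166, 939 and 1338 CPM) and Ccl7, and none was higher. Tnfsf15, a TNF family cytokine, had the smallest p: it was at 622, 742 and 723 CPM against 2387, 2791 and 2576 CPM, with the 2 groups far apart (-1.88, SE 0.20, edgeR adjusted p = 1.51e-13, and -1.91 without replicate 3).

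Of the 15 interferon response genes, 1 was higher with SeV (Mx1, 0.43, SE 0.12, edgeR adjusted p = 0.0257) and 1 lower (Oasl1, -0.95, SE 0.18, adjusted p = 7.44e-05), with a median of 0.11, and Mx1 was lost without triplet replicate 3 (adjusted p = 0.26), without any 1 LPS+cGAMP+CpGB library (0.0539 to 0.121) and with RLE factors (0.0514). With RLE factors 0 of the 15 were higher and 2 lower, Oasl1 and Isg15 (-0.46, edgeR adjusted p = 0.0444, and 0.0948 as reported). Ifit1 was at 3936, 4657 and 4811 CPM against 4867, 4513 and 5266 CPM, with overlap (-0.13, SE 0.13, and -0.18 without triplet replicate 3). The largest differences by size were in weakly expressed genes such as Pax4, with 0 counts with SeV and 15 with cGAMP, at least 5.95-fold lower against a floor of 3 counts over the group, and Insig2, with 1 and 20 counts. Pax4 was lost without triplet replicate 3 or cGAMP triplet replicate 3 (edgeR adjusted p = 0.0534 and 0.108), and Insig2 without cGAMP triplet replicate 2 (0.0814). At the other end Xpnpep1 had 22 counts against 2, a ratio of 9.24 (95% counting interval 2.27 to 81.1), and was lost without triplet replicate 3 or cGAMP triplet replicate 1 or 3 (edgeR adjusted p = 0.0634 to 0.1).

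**Figure D5:**
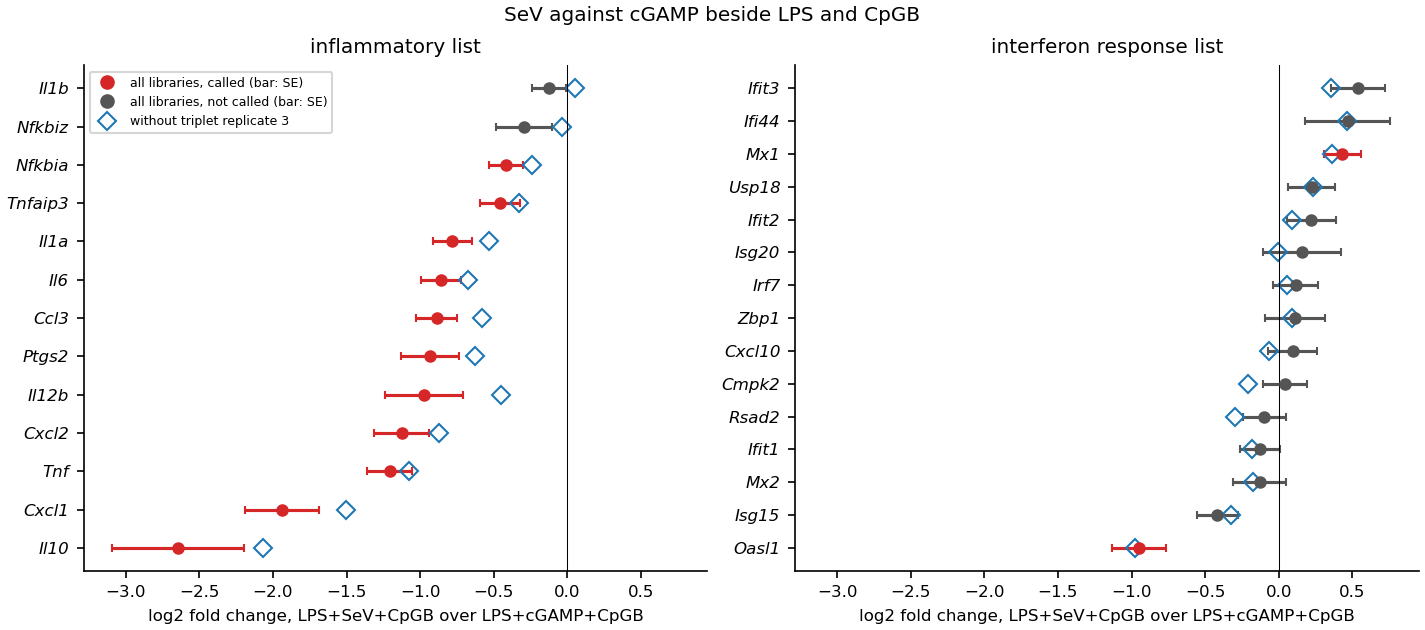
Log2 fold change of LPS+SeV+CpGB over LPS+cGAMP+CpGB for the 13 inflammatory genes tested (left) and the 15 interferon response genes (right), with all libraries (circle, bar: SE, red where called) and without triplet replicate 3 (open diamond). On the left 11 genes are called lower with SeV, on the right 1 is lower and 1 higher (2 lower and 0 higher with RLE factors).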

How the data were processed

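Per the labels' protocols, RNA from lysed cells was reverse transcribed with template switching, the cDNA was pooled before amplification, tagmented with Nextera XT and read on a NextSeq instrument. What the authors deposited are counts of unique molecular identifiers (UMIs) for each gene symbol, whole and not normalized. The submitters' processing notes name BWA 0.7.15 and the mm10 genome. The annotation, the rule for collapsing UMIs and the handling of reads that match several genes or either strand are not given in the sources used here, so genes with near-identical or overlapping relatives (Ifit, Gbp and Fcgr families) are uncertain.

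The statistics were run in R 4.3.3 (edgeR 4.0.16). filterByExpr by group kept 4720 of 23481 genes and 95.7% of all UMIs. TMM factors scaled the libraries, and CPM were computed from the counts with these scaled sizes. All 192 libraries entered 1 quasi-likelihood fit of edgeR with a mean for every group, so that the 64 groups share 1 estimate of the spread (128 residual degrees of freedom, biological coefficient of variation 10.3%). A change was called at a Benjamini-Hochberg adjusted p under 0.05 over the 4720 genes, and above or below all pairs also needed a log2 fold change of at least 1 over each pair. Fits without triplet replicate 3 used the same genes. Counting intervals and floors (95%, 3 counts) cover counting error only. The statistics were tested on simulated data. Of the 23481 symbols, 21911 are in the RefSeq gene table.

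The triplet, the 16 gene lists and 10 marker lists, and the rule for named genes were chosen with earlier results of these data known. The rule takes the 8 largest called rises and falls per added ligand at 20 CPM or more without overlap between groups, the called genes with the smallest p for the interaction and the effect against the ligand alone, the 4 largest differences each way from LPS+cGAMP+CpGB, up to 4 called members per list and 12 genes by name. Alternatives were RLE factors, library size alone, DESeq2 1.42.0, no filter, the 12 libraries alone, thinning to 46564 counts, a replicate block, the other fold threshold and leaving out each replicate.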

Additional observations from a re-analysis of the deposited data

Results flagged for a closer look

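For each of the 3 ligands, the effect of adding it to the other two differed from its effect alone over Ctrl, by an edgeR test of the difference itself. The test called 617 genes for CpGB, 513 for SeV and 735 for LPS, with the same triplet and Ctrl libraries in each. Whichever of the 12 libraries behind each test was left out, 356, 288 and 458 of these calls held. Interferon-stimulated genes such as Mx1 and Ifit1 led those with a smaller effect in the pair for SeV. What the differences come from was not tested.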

How the results depend on the processing

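RLE factors, library size alone, DESeq2 and no filter gave total counts within 1.5 times the reported ones, except that no filter called 2 genes for SeV. Directions moved more: against the ligand alone, the 149 (CpGB), 116 (SeV) and 199 (LPS) higher genes became 58, 25 and 64 with no filter and 288, 220 and 360 with library size alone. The 12 libraries fitted alone called 31 genes for CpGB, 25 higher and 6 lower, and 2 for SeV. At a log2 fold change of at least 1, 99 genes were called for LPS and 78 between the SeV and cGAMP triplets. Thinned to 46564 counts per library, the fits called 7 genes for CpGB, 55 for LPS, 96 for the three-way interaction, 51 between the SeV and cGAMP triplets, and 339 (CpGB), 267 (SeV) and 366 (LPS) for the effect in the pair against the ligand alone. Leaving out 1 library, or 1 replicate number of every group, gave 4 to 65 genes for CpGB, 0 to 3 for SeV, 56 to 168 for LPS, 96 to 198 for the interaction and 47 to 128 against cGAMP. For the effect against the ligand alone it gave 406 to 619 (CpGB), 360 to 483 (SeV) and 526 to 708 (LPS). A group left with 2 libraries shares its spread with the others in the fit. Genes above or below all 3 pairs stayed at 0 under every setting run. Of 123 calls of named genes, 47 held under every setting and 76 were lost under at least 1, and no call changed direction. RLE factors moved the median of all genes by 0.10 to 0.12 for the effects against the ligand alone. Deviations of same-numbered triplet and pair libraries correlated at -0.0327 to 0.0120. Counting noise at this depth can hide a pairing, so whether replicate numbers pair the libraries stays unknown. With a replicate block the counts were 26 (CpGB), 0 (SeV), 206 (LPS), 199 (interaction), 134 (against cGAMP), and 647, 521 and 751 (CpGB, SeV and LPS against the ligand alone). The causes of these changes were not tested, other than fewer counts after thinning. Depth limits genes of few counts, where a change of 2-fold or more can go uncalled.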

Other observations

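In the test of a ligand's effect in the pair against its effect alone, genes of antigen presentation were also counted. Of 11 class I presentation genes tested, 10 had a smaller effect in the pair for each of CpGB, SeV and LPS, and 0 had a larger one, beside 9.92%, 8.41% and 11.4% of all genes tested with a smaller effect. The tests of the 3 ligands share the triplet and Ctrl libraries. Without triplet replicate 3 the count for SeV was 8, and with library size alone the counts were 7, 7 and 10. Tap1, which carries peptides into the endoplasmic reticulum, was at 55.4, 37.4 and 76.8 CPM in Ctrl, at 655, 587 and 671 CPM with LPS alone, and at 716, 591 and 744 CPM in the triplet. The 21 libraries of the 3 single ligands, the 3 pairs and the triplet lay between 329.9 and 822 CPM, all above Ctrl. For LPS the difference between its effects was -3.04 on the log2 scale (SE 0.33, edgeR adjusted p = 2.49e-15). Of 7 class II genes tested, 0 were called for CpGB and SeV and 1, H2-Ab1, for LPS, which was not called with library size alone. H2-Ab1, a chain of the class II molecule, was at 1718, 1522 and 1335 CPM in Ctrl and at 1568, 1711 and 1724 CPM in the triplet, and these groups overlapped. The difference between the 2 classes was not tested.

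Ccl22, a chemokine that attracts T cells, was at 97, 212 and 134 CPM in Ctrl, at 953, 1103 and 1078 CPM with LPS alone, at 990, 1174 and 1074 CPM with CpGB alone, and at 143, 161 and 103 CPM with SeV alone, where it overlapped Ctrl. In the triplet it was at 1414, 1322 and 1085 CPM. The difference between the effect in the pair and alone was -2.61 for CpGB (SE 0.28, edgeR adjusted p = 1.07e-15), -2.60 for LPS (SE 0.28, adjusted p = 1.05e-15) and -0.04 for SeV (SE 0.36, adjusted p = 0.981). Without triplet replicate 3 these were -2.50, -2.50 and 0.07. Ccl22, Tap1 and H2-Ab1 were named here after their values were seen.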
